A study of Mus musculus with 12 samples.

Results

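The gene segments of the invariant natural killer T (iNKT) cell receptor alpha chain, Trav11, its duplicate Trav11d and Traj18 (listed in the tables as TRAV11, TRAV11D and TRAJ18), were followed in 12 tables of T cell receptor alpha (Tcra) transcripts from mouse thymocytes. They are 3 of the 128 Trav and Traj segments listed. Members were chosen by name: the rows of Trav11 and Trav11d with all their Traj partners and the column of Traj18 with all its Trav partners make 169 of the 3655 pairs listed in any table. Of the 3397 pairs whose Trav segment is listed in all 12 tables, 163 are member pairs, and these were tested. A share is the deposited fraction of a pair, or the sum over a row or column, divided by the total of its own table.

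The cells were CD4 and CD8 double-positive (DP) thymocytes negative for CD3e, sorted before selection from mice of 4 to 6 weeks. Per the labels, all mice were C57BL/6J with strain 129 TcrdCreER at the Tcra-Tcrd loci and a Rosa26 ZsGreen reporter, given as ZsG/ZsG in one label and as ZsG/+ in another. TcrdCreER is a Cre recombinase, active only with tamoxifen, placed in the Tcrd gene, so it marks cells in which Tcrd was still active at the injection. Wild-type (WT) mice were compared with mice homozygous for the DPASE knockout (KO), either untreated (steady state) or given 1 mg of tamoxifen and sampled 24 h or 48 h later, when ZsGreen-positive cells were taken. Each of the 6 groups has 2 libraries. The labels mention 2 mice per group without saying which library came from which animal, so p-values here reflect library-to-library spread alone, some of which may be technical. The tables hold Trav and Traj segments only, so the sorted cell type could not be checked against CD4, CD8 or CD3e.

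In mice, iNKT cells carry one nearly fixed alpha chain, made by joining Trav11 to Traj18, and recognise lipids presented by CD1d. The chain arises in DP thymocytes, whose Tcra genes rearrange in rounds that begin with proximal Trav and 5′ Traj segments and move to more distal Trav and more 3′ Traj segments. Another innate-like lineage, the mucosal-associated invariant T (MAIT) cell, uses Trav1 joined to Traj33, and this pair served as a comparison.

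On the reference assembly GRCm38 (GENCODE vM21), all 3 segments lie on the plus strand of chromosome 14. Trav11 spans chr14:53519303-53519859 with 2 exons, stands at rank 50 of the 79 shared Trav segments counted from the far end of the V array, and lies 680.9 kb from Traj18. Trav11d spans chr14:52824357-52824912, also with 2 exons, stands at rank 16 and lies 1375.9 kb from Traj18. Traj18 is a single exon of 66 bases at chr14:54200777-54200842, 19.7 kb before Trac, in the 3′ part of the J array. The build the authors used is not given in the sources used here, and the labels place 129-strain DNA at this locus, whereas the reference is C57BL/6J.

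The sequences below, from the GENCODE vM21 transcripts, show the ends that are joined, 4 of the most favoured Traj partners of Trav11 (Traj18, Traj6, Traj11 and Traj32) and 3 unused ones (Traj23, Traj7 and Traj5), described further on. For Trav11 and Trav11d the last 60 bases are given, with the last in-frame cysteine codon, where the junction region starts, in capitals. For the Traj segments the whole segment is given, with the codons of the conserved FGxG motif in capitals where a script found them in the reading frame of the segment. That was so in 36 of the 40 Traj segments that have a single reference transcript, and Traj7, printed without capitals, is one of the other 4.
Trav11: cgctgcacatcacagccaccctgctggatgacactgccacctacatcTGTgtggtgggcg
Trav11d: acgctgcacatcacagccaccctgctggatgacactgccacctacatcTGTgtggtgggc
Traj18: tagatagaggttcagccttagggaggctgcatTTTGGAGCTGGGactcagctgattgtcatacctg
Traj6: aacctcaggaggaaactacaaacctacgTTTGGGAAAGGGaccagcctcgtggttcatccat
Traj11: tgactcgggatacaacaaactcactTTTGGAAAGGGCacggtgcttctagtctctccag
Traj32: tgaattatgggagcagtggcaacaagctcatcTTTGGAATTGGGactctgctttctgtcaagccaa
Traj23: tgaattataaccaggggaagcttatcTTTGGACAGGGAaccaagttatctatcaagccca
Traj7: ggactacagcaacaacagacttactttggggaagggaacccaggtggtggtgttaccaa
Traj5: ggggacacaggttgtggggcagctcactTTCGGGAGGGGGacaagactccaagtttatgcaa

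The coding sequences of Trav11 and Trav11d are identical over the 342 bases they share, so how a transcript was assigned to one or the other copy rests on the authors' counting, which is not described in the sources used here, and the split between them is uncertain. A further reference copy, Trav11n, matches Trav11 at 335 of 343 bases, and no segment with an n suffix is listed in any table. The tables give pairs and no junction sequences, so whether a Trav11-Traj18 transcript carries the invariant junction was not measured.

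The 12 tables are of 2 kinds. In 8 of them the fractions sum to 0.995 to 0.998 and the smallest share above 0 is 0.000336% to 0.000853%. In the other 4, replicate 2 of both genotypes at 24 h and 48 h, they sum to 1.97 to 1.99, the smallest share is 0.00401% to 0.00937%, and 41.7% to 55.2% of pairs stand at 0. These 4 coarse tables list Trav11 with 3 to 10 of the 43 Traj segments, against 31 to 38 in the 8 fine tables. Results that rest on them are given with and without them. Without them each tamoxifen group is 1 library, so in the fits of the 8 fine tables the spread comes from the 4 steady-state libraries alone, and the lone libraries are assumed to vary like those. Every call at or between 24 h and 48 h in those fits therefore compares single libraries. The depth in reads is unknown.

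Trav11 was a low-use segment, at about 0.5% of the repertoire in the 8 fine tables, and Trav11d was among the 3 least used in every library. At steady state Trav11 took 0.497% and 0.555% in WT and 0.516% and 0.631% in KO. At 24 h it took 0.473% and 0.0983% in WT and 0.408% and 0.0470% in KO, and at 48 h 0.609% and 0.113% in WT and 0.597% and 0.0736% in KO. In each tamoxifen group the second value, from the coarse table, is the low one. There replicate 2 stood below replicate 1 by 2.16 to 2.87 on the log2 scale, with log2 differences of -2.16, -2.87, -2.33 and -2.86, whereas at steady state it stood above by 0.15 and 0.29. Among the 79 Trav segments these 4 gaps ranked 9, 2, 5 and 2 from the lowest. What sets the replicates apart was not tested.

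Trav11d took 0.0562% and 0.0434% at steady state in WT and 0.0470% and 0.0390% in KO. It took 0.0154% and 0.0167% at 24 h in WT, 0.0115% and 0.0353% at 24 h in KO, 0.0490% and 0.0570% at 48 h in WT, and 0.0527% and 0.0222% at 48 h in KO. By share it ranked 77 to 79 of the 79 Trav segments. The ratio of Trav11 to Trav11d was 8.86 to 16.2 at steady state and, in the fine tables, 30.8 in WT and 35.5 in KO at 24 h and 12.4 and 11.3 at 48 h. It was 1.33 to 5.90 in the coarse tables. There Trav11d stood above its replicate 1 in 3 groups and below it in KO at 48 h, by a log2 difference of -0.96.

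**Figure D1:**
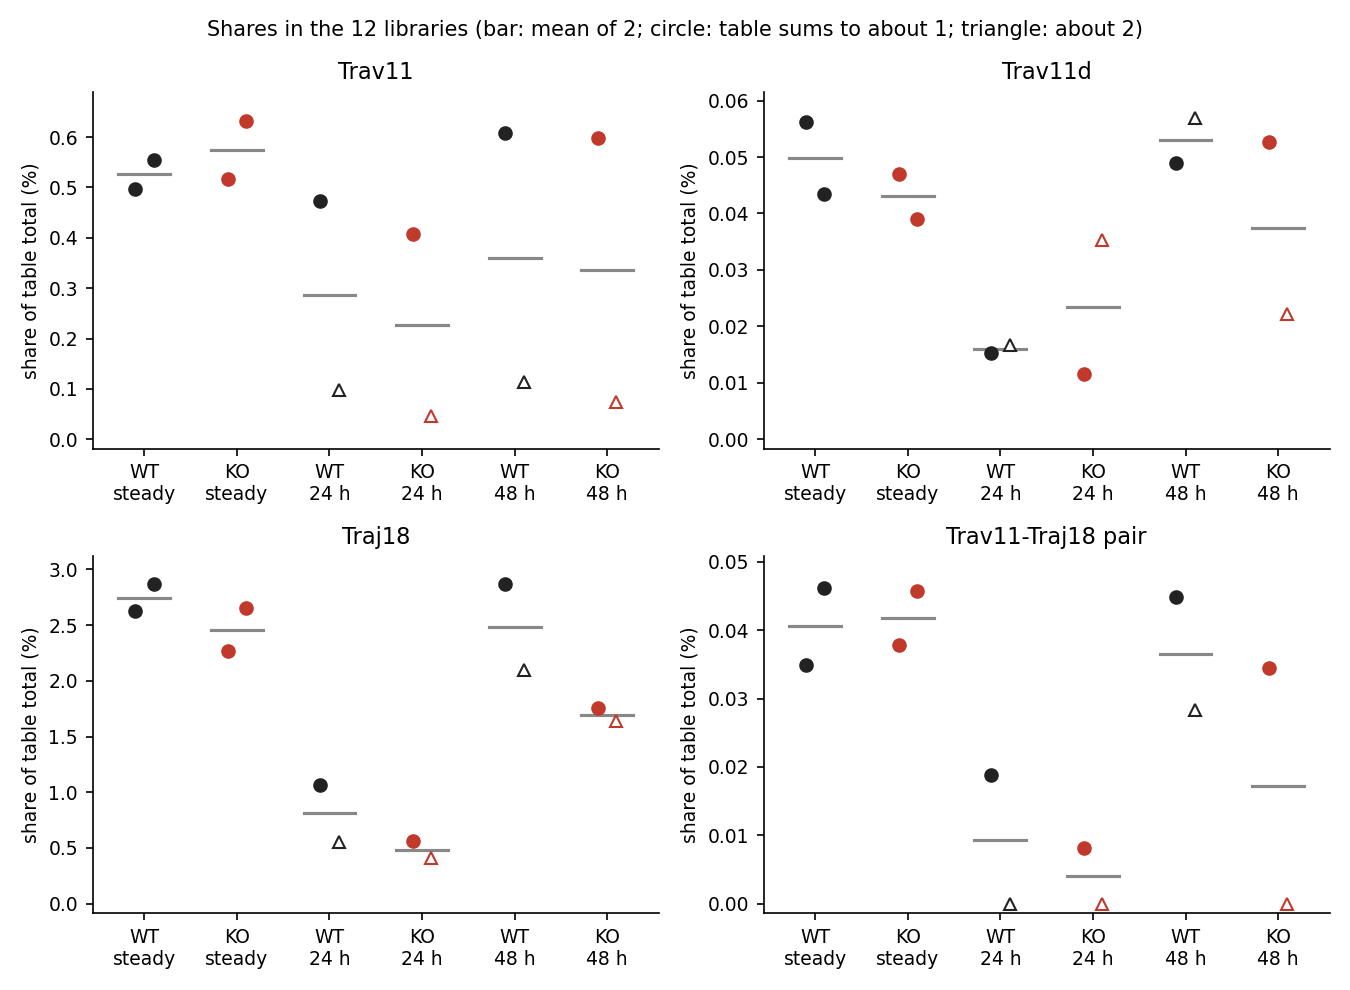
Shares of Trav11, Trav11d, Traj18 and the Trav11-Traj18 pair (percent of the table total, y axis) in the 6 groups (x axis; black WT, red KO), with 1 point per library, circles for the 8 fine tables, open triangles for the 4 coarse ones and a bar for the mean of 2. The triangles of Trav11 sit at 0.0470% to 0.113%, under every circle, and Traj18 is lowest at 24 h in both genotypes.

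No difference between genotypes passed the test for either V segment. On log2(percent + 0.01), the scale of all share tests here, limma gave KO minus WT of -0.25 (SE 0.75) for Trav11 over the mean of the 3 samplings, with an adjusted p of 0.956, and -0.13 (SE 0.26) for Trav11d, with an adjusted p of 0.931. In that fit the background for Trav shares was 0% called of 79, and 5 segments had an unadjusted p under 0.05. A replicate block, which pairs same-numbered WT and KO libraries, lowered the SE to 0.125 for Trav11 (limma adjusted p = 0.158) and 0.193 for Trav11d (limma adjusted p = 0.592). Nearby, limma with the block called Trav10d lower (-0.38, adjusted p = 0.0165) and Trav12-1 higher (0.45, adjusted p = 0.0412). The share of all Trav segments called with the block is not given here. From 24 h to 48 h in WT limma gave +0.27 (SE 1.30) for Trav11 and +1.27 (SE 0.45) for Trav11d, with adjusted p of 0.949 and 0.201, against 1.27% of Trav segments called higher. On the 8 fine tables alone, with 1 library at each time, limma called Trav11d higher at 48 h than at 24 h, by 1.22 in WT (SE 0.22, adjusted p = 0.0121) and by 1.55 in KO (SE 0.22, adjusted p = 0.00798), where it called 40.5% and 29.1% of Trav segments higher. In that fit Trav11 changed by +0.36 and +0.54 with adjusted p of 0.181 and 0.0873.

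Over the 12 libraries the segments most like Trav11 in pattern were Trav6d-6, Trav6-6 and Trav6-5. Likeness is the mean absolute difference of centred log2 shares, 0.16 for Trav6d-6, 0.22 for Trav6-6 and 0.28 for Trav6-5, against a median of 0.99 over all Trav segments. Trav6-6 is the immediate neighbour of Trav11, and it too had 0.340% to 0.448% in the coarse tables against 2.25% to 3.05% in replicate 1 of the same groups. Trav6-5, next to Trav10, shared this gap, at 0.358% to 0.566% in the coarse tables against 1.49% to 2.22% in their replicate 1. Trav10 and Trav7-5 did not. Trav10, next to Trav6-6, was higher in the coarse tables, at 2.04% to 3.20% against 1.09% to 1.36% in their replicate 1. Trav7-5, on the other side of Trav11, stood at 1.61% to 2.80% in the coarse tables and at 2.00% to 2.14% in their replicate 1. For Trav11d the most similar were Trav14d-3-dv8 (0.30), Trav12d-2 (0.34) and Trav6d-7 (0.34), against a median of 0.68.

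Traj18, the J segment of the iNKT chain, took 2.62% and 2.87% of the repertoire at steady state in WT and 2.27% and 2.65% in KO. At 24 h after tamoxifen it took 1.06% and 0.555% in WT and 0.560% and 0.405% in KO. At 48 h it took 2.87% and 2.09% in WT and 1.75% and 1.64% in KO. The genotypes overlap at steady state and, by the WT coarse table and KO replicate 1, at 24 h, and they do not overlap at 48 h, where all 4 values are ordered WT above KO. As group means, Traj18 averaged 2.74% ± 0.17 (SD, n = 2) in untreated WT and 2.46% ± 0.28 in untreated KO, 0.809% ± 0.359 and 0.483% ± 0.110 at 24 h, and 2.48% ± 0.550 and 1.70% ± 0.0783 at 48 h.

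Averaged over the 3 samplings Traj18 was lower in KO, by limma with a log2 difference of -0.46 (SE 0.16) and an adjusted p of 0.0293. Limma called 51.2% of the 43 Traj segments lower in that contrast. At steady state limma gave -0.16 (adjusted p = 0.646), at 24 h -0.68 (adjusted p = 0.0532) and at 48 h -0.53 (adjusted p = 0.123). It called 16.3%, 58.1% and 37.2% of Traj segments lower in these contrasts. With the replicate block limma called Traj18 lower at 24 h (adjusted p = 0.00496) and at 48 h (adjusted p = 0.0144), where it called 69.8% and 48.8% of segments lower. The mean difference lost its call on a centred scale (-0.11, limma adjusted p = 0.437), on which the median Traj difference moved from -0.21 to 0.13 and the Traj calls moved from 12 higher and 22 lower to 18 higher and 16 lower. It also lost it when 1 of 6 libraries was left out (replicate 1 of WT at 24 h, WT at 48 h or KO at steady state, replicate 2 of WT at steady state, KO at 24 h or KO at 48 h), with values of -0.44 to -0.30 and limma adjusted p of 0.050001 to 0.0775.

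The larger difference for Traj18 was between the samplings after tamoxifen. From 24 h to 48 h it rose by 1.66 in WT (SE 0.29, limma adjusted p = 0.000387) and by 1.81 in KO (SE 0.29, limma adjusted p = 0.000182), with every 48 h library above every 24 h library. Limma called 51.2% of Traj segments higher over this interval in WT and 67.4% in KO. The change itself did not differ detectably between genotypes (difference 0.15, SE 0.40, limma adjusted p = 0.794). These samplings are of different mice, and in bulk RNA fewer cells with a chain and less of its RNA per cell cannot be told apart.

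Before centring, Traj18 moved in the same direction as the J segments around it. Of the 9 listed segments from Traj24 to Traj12, limma called 1 lower in untreated KO mice, 8 at 24 h and 9 at 48 h, with median log2 differences of -0.36, -0.99 and -0.97. On the centred scale limma called 1, 3 and 8 of them lower, with medians of -0.21, -0.45 and -0.62. There Traj18 itself was not called, at -0.01, -0.15 and -0.18 (limma adjusted p = 0.967, 0.603 and 0.495). The shares of all Traj segments called lower at each sampling on that scale are not given here. Without centring, Traj18 at 24 h (-0.68) lay nearer to 0 than 7 of these 9, among them Traj17 (-0.83, limma adjusted p = 0.00159) and Traj24 (-1.28, limma adjusted p = 0.00209). At 48 h it lay nearer to 0 than 8 of the 9, the exception being Traj23 (-0.47, limma adjusted p = 0.0197). All 9 were called higher from 24 h to 48 h in both genotypes, by medians of 1.67 in WT and 1.79 in KO. With the replicate block limma called 4 of the 9 lower at steady state, where it called 25.6% of all Traj segments lower. The J segments most like Traj18 in pattern over the 12 libraries were Traj17 (0.20), Traj16 (0.21) and Traj28 (0.22), against a median of 0.62.

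The Trav11-Traj18 pair was used more than the product of its 2 segment shares in every fine table. It took 0.0350% and 0.0462% at steady state in WT and 0.0378% and 0.0457% in KO. At 24 h it took 0.0188% in WT and 0.00821% in KO in replicate 1, and at 48 h 0.0449% and 0.0345%. In the coarse tables it stood at 0, apart from 0.0283% in WT at 48 h. Divided by the product of the row and column shares, these gave observed over expected ratios of 2.68 and 2.91 in WT and 3.24 and 2.73 in KO at steady state. The ratios were 3.73 and 3.59 at 24 h and 2.57 and 3.29 at 48 h, in replicate 1 of WT and KO in that order. All 8 fine tables therefore lie between 2.57 and 3.73, and the genotypes overlap.

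The coarse tables cannot resolve this pair. Its expected share there was only 0.0330 to 0.253 of the smallest share listed, so their 3 zeros and the ratio of 11.9 in WT at 48 h are values at the limit of those tables. Over the 9 libraries with the pair above 0, KO minus WT of log2(observed over expected) was -0.24, with an exact two-sided permutation p of 0.889 within samplings. There were only 36 arrangements, so p-values here are coarse. In the 8 fine tables it was 0.13, with an exact permutation p of 0.417, where 0.0833 is the smallest possible.

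As a share, the pair did not differ detectably between genotypes either. Limma gave a mean difference of -0.47 (SE 0.43, adjusted p = 0.693), and in the 8 fine tables -0.31 (SE 0.12, adjusted p = 0.101). Between 24 h and 48 h it was called higher only in the fit of the 8 fine tables, which compares 1 library with 1, by 0.93 in WT (SE 0.23, limma adjusted p = 0.0251) and 1.29 in KO (SE 0.23, limma adjusted p = 0.0166). That fit called 32.6% and 28.3% of all pairs higher. With all 12 tables limma gave 1.43 and 0.64 with adjusted p of 0.301 and 0.803.

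Trav11d-Traj18 also exceeded its expectation, at a lower level. It took 0.00432% and 0.00362% at steady state in WT and 0.00498% and 0.00470% in KO, ratios to its expectation of 2.93, 2.91, 4.68 and 4.54. It was at 0 in all 4 coarse tables and in KO replicate 1 at 24 h. In the 4 steady-state libraries it had the highest ratio of the 79 Traj18 pairs, at an expected share of 2.99 to 3.75 times the smallest share listed. At 24 h its expected share lay below the smallest share in every table, so its ratios there carry no information. Trav11-Traj18 ranked 2 in every fine table except WT replicate 1 at 24 h, where it ranked 3. The MAIT pair, Trav1-Traj33, showed a smaller excess over its own expectation: at steady state its ratios were 1.26 and 1.15 in WT and 1.70 and 1.49 in KO, and it ranked 2 to 25 of 79 in the Traj33 column.

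At steady state Traj18 was joined mainly by distal and central Trav segments, while at 24 h proximal segments made up 51.6% to 57.9% of it. Over all pairs proximal segments made up 34.0% to 45.5% at steady state and 58.3% to 66.5% at 24 h. In each of these libraries that was above their part of Traj18. By chromosomal order the 79 shared Trav segments were split into 26 distal, 26 central and 27 proximal. Without Trav11 and Trav11d, the median steady-state ratio of observed to expected with Traj18 was 1.25 for distal segments, 1.27 for central segments and 0.568 for proximal ones, of which 1 of 27 was above 1. The Traj18 partners with the highest mean share were Trav7-3, Trav7-4, Trav14-1, Trav13-1 and Trav13d-1, at 0.0884%, 0.0830%, 0.0594%, 0.0525% and 0.0522% over the 12 libraries, with ratios of 1.39, 1.17, 0.834, 1.02 and 1.498. Trav11d (3.71) and Trav11 (2.93) stand apart from this gradient, and the next highest ratio is that of Trav1, at 1.90.

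**Figure D2:**
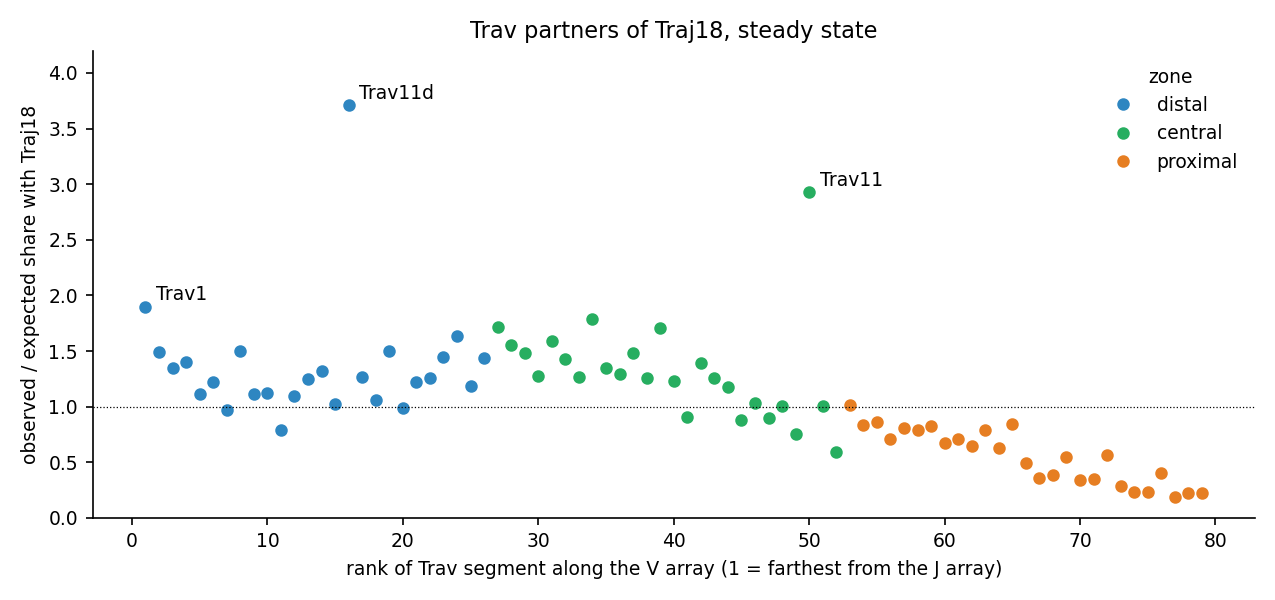
Steady-state ratio of observed to expected share with Traj18 (y axis) for the 79 Trav segments in chromosomal order (x axis, rank 1 farthest from the J array), coloured by zone. Each point is 1 ratio, taken after the shares were averaged over 4 libraries. The ratio falls towards the proximal end, to 0.188 for Trav19, while Trav11d (3.71) and Trav11 (2.93) lie above every other segment.

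Single Traj18 pairs mostly did not pass the test between genotypes. Limma called 0 of the 79 Traj18 pairs in the mean difference, with 9 at an unadjusted p under 0.05, against 1.09% of all pairs called lower. The median log2 difference was -0.10 and 54 of 79 were negative. With the replicate block limma called 1 lower, a count given without the share of all pairs called in that fit. For the 8 fine tables it called 31 lower and none higher, against 26.1% of all pairs called lower. Among them were Traj18 with Trav7d-3 (-0.88, SE 0.08, adjusted p = 0.00694) and Trav7d-2 (-0.75, SE 0.09, adjusted p = 0.00861). At 48 h, with 1 library per genotype, that fit called 19 lower, against 16.2% of all pairs.

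From 24 h to 48 h in WT limma called 10 of the 79 Traj18 pairs higher, against 5.98% of all pairs. These were Traj18 with Trav7d-5 (2.20), Trav13d-1 (2.01), Trav4d-4 (1.81), Trav3-1 (2.23), Trav4d-3 (2.08), Trav8d-2 (2.00), Trav9d-3 (1.53), Trav12d-2 (3.09), Trav15d-1-dv6d-1 (1.41) and Trav7-5 (1.48), with limma adjusted p of 0.0231 to 0.0466. In KO limma called 0 of 79, with 22 at an unadjusted p under 0.05 and 0% of all pairs called higher, although 76 of 79 were positive. The WT count was 0 when any 1 of the 4 steady-state libraries or WT replicate 2 at 24 h was left out, and 4 without WT replicate 1 at 24 h. In the 8 fine tables, 1 library against 1, limma called 50 higher in WT and 48 in KO, where 32.6% and 28.3% of all pairs were called higher.

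The V partners of Traj18 lay farther from the J array in WT than in KO, as did the Trav segments of the repertoire as a whole. The usage-weighted mean rank of its Trav partners, in which a low rank is distal, was 34.9 and 33.8 in WT and 38.1 and 37.3 in KO at steady state. It was 47.6 and 48.1 in WT and 50.7 and 50.4 in KO at 24 h, and 35.7 and 36.8 in WT and 42.2 and 41.9 in KO at 48 h. The genotypes do not overlap at any of the 3 samplings. Here the coarse tables lie close to their replicates.

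Limma gave a mean difference of 3.93 ranks (SE 0.80, adjusted p = 0.00202), and called 39.5% of the 43 Traj segments higher. At 48 h it gave 5.76 (SE 1.38, adjusted p = 0.00550), with 37.2% of segments called higher. With partners under 0.01% left out, that value was 6.05 with an adjusted p of 0.05003, just past the threshold. At steady state limma gave 3.33 (adjusted p = 0.163), with 2.33% of segments called, and at 24 h 2.69 (adjusted p = 0.453), with 0% called. In the 8 fine tables the steady-state difference passed the test (3.33, SE 0.69, limma adjusted p = 0.0124), as did 53.5% of segments. Between 24 h and 48 h the partners moved to lower ranks, with limma differences of -11.57 in WT (adjusted p = 1.58e-05) and -8.496 in KO (adjusted p = 0.000931), as did those of 76.7% and 55.8% of segments.

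The mean rank of Traj18 partners was lower than that of the repertoire as a whole in every library. It lay below that of all pairs, with differences from -3.40 in KO replicate 1 at 24 h to -9.40 in WT replicate 2 at 48 h. At steady state distal Trav segments made up 36.3% and 37.1% of Traj18 in WT against 27.9% and 29.4% of all pairs, and 29.4% and 30.1% in KO against 21.3% and 22.6%. At 24 h they made up 17.02% and 14.02% in WT against 15.5% and 14.3%, and 12.4% and 13.1% in KO against 13.7% and 14.1%, so in 3 of those 4 libraries the distal share of Traj18 was not above that of all pairs. Proximal segments made up 23.2% and 20.2% of Traj18 in WT and 27.7% and 24.4% in KO at steady state.

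**Figure D3:**
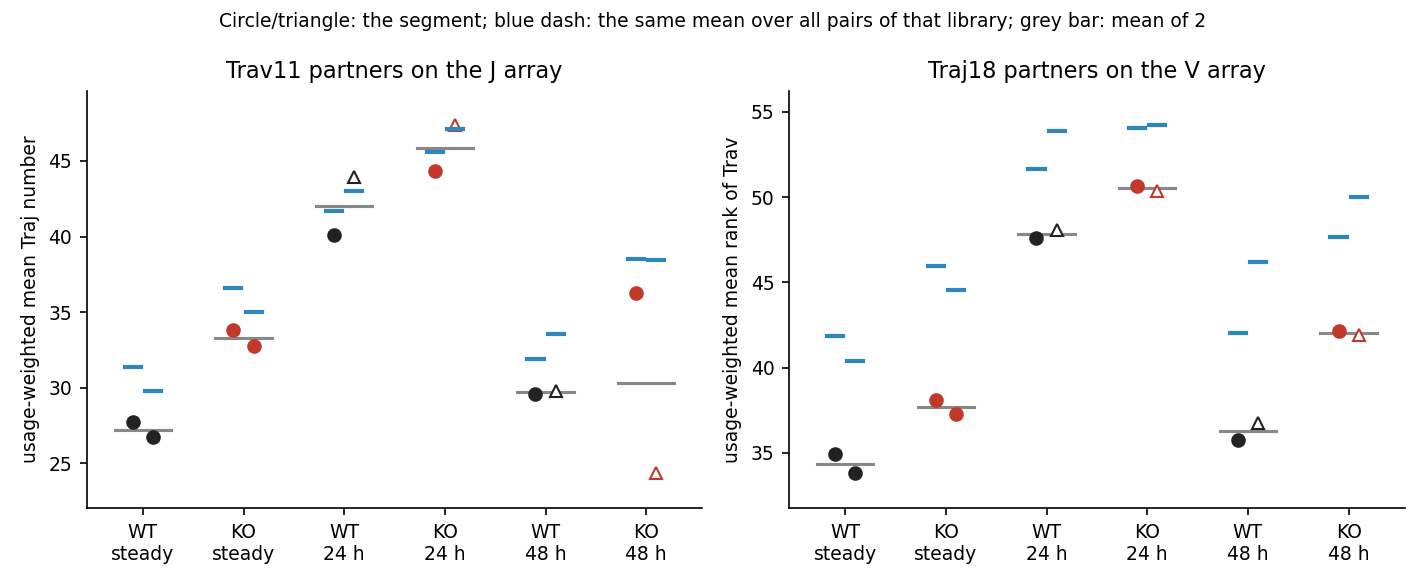
Usage-weighted mean Traj number of Trav11 partners (left) and mean Trav rank of Traj18 partners (right) in the 6 groups, with 1 point per library (circles fine tables, triangles coarse tables), a grey bar for the mean of 2 and a blue dash for the same mean over all pairs of that library. KO lies above WT for Traj18 at each sampling, while for Trav11 the KO coarse table at 48 h (24.3) lies below both WT values (29.6 and 29.8). The dashes for all pairs lie higher in KO at each sampling in both panels.

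On the J side, the partners of Trav11 differed between genotypes in the fine tables and not when all 12 were fitted. Traj numbers fall from 5′ to 3′, so a high mean is 5′. The usage-weighted mean Traj number of Trav11 partners was 27.7 and 26.7 in WT and 33.8 and 32.7 in KO at steady state. It was 40.1 and 44.0 in WT and 44.3 and 47.4 in KO at 24 h, and 29.6 and 29.8 in WT and 36.2 and 24.3 in KO at 48 h. The genotypes do not overlap at steady state or at 24 h, and at 48 h the KO values lie on either side of WT. The same means over all pairs do not overlap at these samplings either. They were 31.4 and 29.8 in WT and 36.6 and 35.0 in KO at steady state. At 24 h they were 41.7 and 43.0 in WT and 45.6 and 47.1 in KO. At 48 h they were 31.9 and 33.6 in WT and 38.5 and 38.5 in KO.

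With all 12 tables the Trav11 differences did not pass. Limma gave 6.04 (SE 3.02, adjusted p = 0.106) at steady state, 3.81 (adjusted p = 0.266) at 24 h, 0.59 (adjusted p = 0.866) at 48 h and a mean of 3.48 (SE 1.74, adjusted p = 0.0761). It called 48.1%, 46.8%, 69.6% and 93.7% of the 79 Trav segments higher in these contrasts. Over the 8 fine tables the mean was 5.64 (SE 0.74, limma adjusted p = 2.92e-06), with 96.2% of segments called. Without KO replicate 1 at 48 h, the 48 h difference of Trav11 partners was -5.36, and without the coarse KO replicate 2 it was 6.55. Each leaves KO with 1 library at 48 h, whose spread is taken from the other groups, so the direction at 48 h rests on which of the 2 is used. For Trav11d limma gave a mean of 5.76 (SE 2.28, adjusted p = 0.0326), and with the replicate block 5.76 with an adjusted p of 0.0610. Between 24 h and 48 h the Trav11 partners moved 3′, with differences of -12.32 in WT (SE 3.02, limma adjusted p = 0.00312) and -15.53 in KO (SE 3.02, limma adjusted p = 0.000831), as did those of 91.1% and 82.3% of Trav segments.

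By the mean step in ratio between neighbouring Traj segments, given below, the use of single Traj segments by Trav11 was the most uneven of the 79 Trav segments. At steady state the ratio of observed to expected was above 2 for 10 Traj segments (Traj57, Traj38, Traj33, Traj32, Traj27, Traj18, Traj17, Traj11, Traj6 and Traj4). They held 57.7% of Trav11 transcripts and 22.3% of the whole repertoire. It was below 0.2 for 13 (Traj58, Traj52, Traj49, Traj45, Traj44, Traj43, Traj37, Traj30, Traj23, Traj22, Traj16, Traj7 and Traj5), which held 1.93% of Trav11 transcripts and 29.2% of the repertoire. Both limits were set after the ratios had been seen, so these shares are a description. The highest ratios were 3.22 for Traj6, 2.93 for Traj18, 2.93 for Traj11 and 2.75 for Traj32, so Traj18 is one of several favoured partners and not the first.

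Favoured and little-used partners are interspersed along the J array. Of the 10 used most, 1 lies among the 5′ Traj segments (Traj58 to Traj42), 4 in the middle (Traj40 to Traj22) and 5 in the 3′ part (Traj21 to Traj2). Of the 13 least used, 6, 4 and 3 do. Reference sequences are 57 to 66 bases in both sets. In the reference, 9 of the 10 used most begin with T, as do 5 of the 13 least used and 9 of the 20 others. Traj32 and Traj23, printed above, open with the same 8 bases, and their ratios were 2.75 and 0. Whether the opening bases bear on use was not tested.

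**Figure D4:**
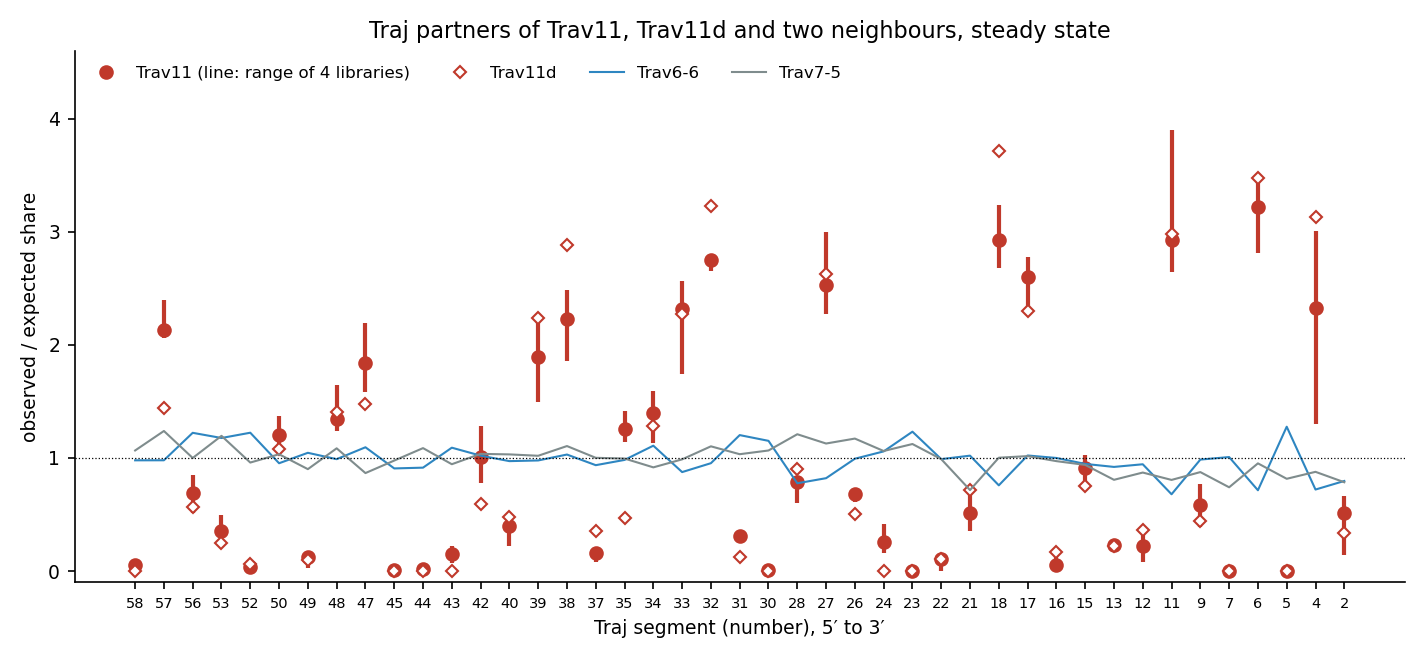
Steady-state ratio of observed to expected share (y axis) for the 43 Traj segments in order along the J array (x axis), for Trav11 (red circles, with the range of 4 libraries as a line), Trav11d (open diamonds) and the flanking Trav6-6 and Trav7-5 (lines). Trav11 and Trav11d change abruptly between some Traj neighbours, as from 0 for Traj7 to 3.22 for Traj6 in Trav11, whereas Trav6-6 and Trav7-5 change gradually.

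Traj23, Traj7 and Traj5 were at 0 with Trav11 and with Trav11d in all 12 libraries. These are not rare segments: at steady state Traj23 took 1.24% to 1.49% of the repertoire, Traj7 0.901% to 2.18% and Traj5 0.423% to 1.39%. The product of shares placed Trav11-Traj23 at 0.00638% to 0.00913%, which is 17.9 to 27.2 times the smallest share those 4 tables list. For Traj7 it was 13.1 to 30.1 times and for Traj5 6.13 to 19.2 times. For Trav11d the expected shares were only 1.61 to 2.08 times the smallest share with Traj23, 1.17 to 2.71 times with Traj7 and 0.559 to 1.66 times with Traj5, so its zeros carry little information. What leaves these pairs empty was not tested.

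In contrast, Trav11-Traj32, the most used Trav11 pair, took 0.0542% and 0.0555% at steady state in WT and 0.0577% and 0.0743% in KO, and it was above 0 in 11 of 12 libraries. Trav11-Traj6 took 0.0358% and 0.0478% in WT and 0.0171% and 0.0195% in KO, so the genotypes do not overlap for this 3′ segment. Over all pairs the 3′ Traj segments together did not overlap either, at 30.2% and 33.8% in WT and 17.6% and 20.4% in KO. The share of single pairs without overlap is not given here. After Traj32, the Trav11 pairs with the highest mean share over the 12 libraries were those with Traj57 (0.0302%), Traj18 (0.0249%), Traj48 (0.0243%) and Traj27 (0.0218%). For Trav11d they were Traj48, Traj27, Traj32, Traj17 and Traj34, at 0.00408%, 0.00360%, 0.00301%, 0.00292% and 0.00228%.

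The pattern recurred in the duplicate segment and across groups, and was not found in the neighbours. Over the 43 Traj segments, Pearson's r of log2(observed over expected), with 0.001% added to both, was 0.906 between Trav11 and Trav11d, which have the same sequence and may share assigned reads. For 41 of 43 Traj segments both lay on the same side of 1, above it for 15. Against the flanking segments r was 0.19 for Trav10, -0.48 for Trav6-6, 0.13 for Trav7-5 and -0.16 for Trav12-1, and the median over the other 77 Trav segments was 0.0082. The highest of those 77 was 0.438, for Trav15d-2-dv6d-2. Within Trav11, r was 0.975 between WT and KO at steady state, and in replicate 1 it was 0.982 between steady state and 48 h and 0.898 between steady state and 24 h. Within Trav11d, whose pairs lie near the smallest share, the corresponding values were lower, at 0.792, 0.938 and 0.630. These are correlations across segments that share libraries and are given as a description.

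**Figure D5:**
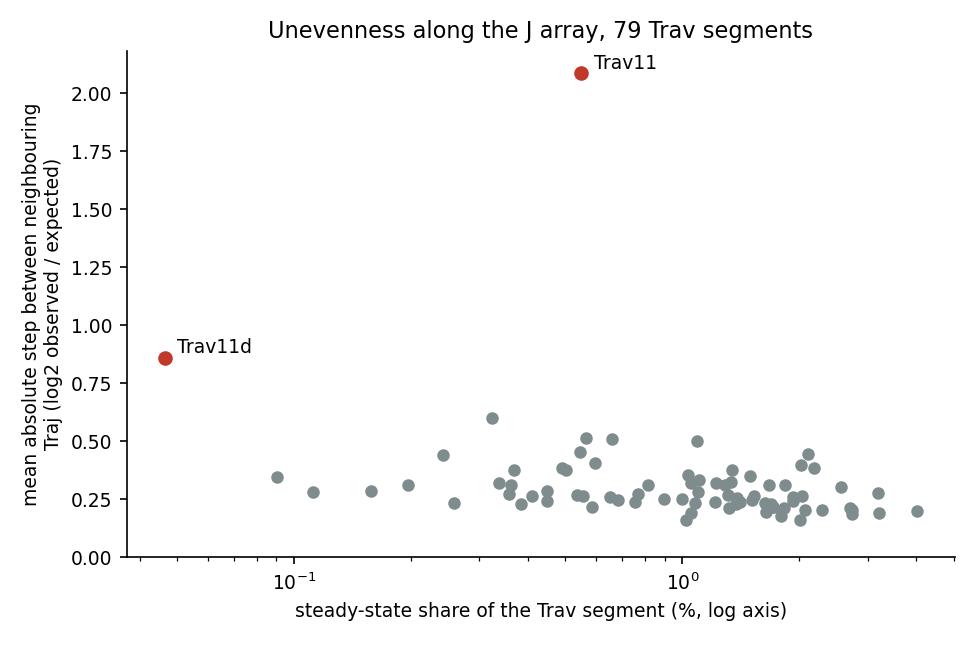
Unevenness along the J array (y axis: mean absolute difference in log2 observed over expected between Traj neighbours, with 0.001% added to both) against steady-state share (x axis, log scale) for the 79 Trav segments. Trav11 (2.09) and Trav11d (0.861) have the highest values, against a median of 0.267.

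As a measure of unevenness, the mean absolute step in log2 ratio from one Traj segment to the next was 2.09 for Trav11, rank 1 of 79, and 0.861 for Trav11d, rank 2. The next was Trav15d-2-dv6d-2 at 0.602, and the median was 0.267. Trav15-1-dv6-1, whose steady-state share of 0.566% is close to the 0.550% of Trav11, had a step of 0.517. By other measures Trav11 was not first. Trav19 and Trav21-dv12 also had 13 ratios below 0.2, and their highest ratios were 4.81 and 5.38, against 3.22 for Trav11. Each had 4 ratios above 2, against 10 for Trav11.

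Between genotypes no single Trav11 pair passed the test in the fit of all 12 tables. With all 12 tables limma called 0 of the 43 Trav11 pairs between genotypes in the mean difference, with 2 at an unadjusted p under 0.05, and 0 of the 43 Trav11d pairs, with 0 at an unadjusted p under 0.05, where 1.09% of all pairs were called lower. From 24 h to 48 h in WT limma called 1 higher, Trav11-Traj11 (1.35, SE 0.27, adjusted p = 0.0321), where 5.98% of all pairs were called higher, and over single libraries left out the count in the Trav11 and Trav11d rows ranged from 0 to 3. In the 8 fine tables limma called 4 of the 43 Trav11 pairs lower in KO and 3 higher, against 26.1% and 10.7% of all pairs. The lower ones were with the 3′ and middle segments Traj4 (-1.09, SE 0.08, adjusted p = 0.00678), Traj6 (-0.84, SE 0.11, adjusted p = 0.00932), Traj11 (-0.39, SE 0.10, adjusted p = 0.0329) and Traj27 (-0.33, SE 0.09, adjusted p = 0.0381). The higher ones were with the 5′ and middle segments Traj57 (0.50), Traj47 (0.40) and Traj38 (0.33), with limma adjusted p of 0.0120 to 0.0398. In that fit limma also called 1 of the 43 Trav11d pairs, with Traj4 (-0.37, SE 0.10, adjusted p = 0.0389).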

How the data were processed

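Template-switch 5′ RACE libraries of Tcra, primed from Trac, were made by the authors from sorted thymocytes, per the labels' protocols. Each of the 12 deposited tables holds the fraction of the repertoire for each Trav and Traj pair; the sources used here name no aligner, build or counting unit, so depth is unknown and no interval was computed. Fractions were divided by their table's total and given as percent. limma 3.58.1 in R 4.3.3 was fitted to log2(percent + 0.01) with 1 mean for each of 6 groups, with Benjamini-Hochberg adjustment at 0.05 over 43 Traj segments, 79 Trav segments or 3397 pairs, and likewise to mean partner positions. Fold changes on this scale understate those of low shares. The 6 Trav segments not listed in every table stayed in the totals and out of the tests. Expected pair shares are products of row and column shares. Their ratio was tested by exact permutation of genotype within samplings, without 3 libraries at 0, for which the logarithm is undefined. Scripts were tested on simulated data.

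The Trav order follows a deposited table. It was checked against GENCODE vM21 coordinates, in which 83 of the 85 Trav and 43 of the 43 Traj names were found. Replicate numbers come from the labels. Same-numbered WT and KO libraries deviated together (correlation of replicate differences 0.948, 0.666 and 0.415 over Traj segments and 0.723, 0.927 and 0.931 over Trav segments at steady state, 24 h and 48 h; 0.464 to 0.652 over pairs), so they were treated as paired in a blocked fit. The segments named are the members, their neighbours and top partners, the MAIT pair, the most similar segments and called pairs, up to 10 for each contrast. Other segments named in comparisons were chosen after their values were seen. Members, lists and tests were chosen with earlier results of these data known.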

Additional observations from a re-analysis of the deposited data

How the results depend on the processing

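Of the alternatives to each result, 918 left the call as it was or the count about the same. Another 46 moved a count, 21 added a call, 8 removed one and 1 reversed a direction with a call on either side. A change of sign where neither fit passed is among the 918. The genotype difference in the Trav11-Traj18 ratio is such a case, at -0.24 over 9 libraries and 0.13 in the 8 fine tables. The choice that mattered most was whether the 4 coarse tables enter; it and the centred scale were chosen with the files in view. With only the 8 fine tables, the Traj18 share in KO minus WT was -0.91 at 24 h and -0.71 at 48 h, and both passed, each comparing 1 library with 1 and taking its spread from the steady-state libraries, as do all fits of these tables at or between 24 h and 48 h. With the replicate block the same values of -0.68 and -0.53 passed (limma adjusted p = 0.00496 and 0.0144). On the centred scale the mean difference was -0.11 and did not pass. Leaving out 1 library at a time gave -1.14 to -0.22 at 24 h, -0.76 to -0.30 at 48 h and -0.61 to -0.30 for the mean.

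With the 8 fine tables, Trav11d rose from 24 h to 48 h by 1.22 in WT and 1.55 in KO, and the Trav11-Traj18 pair by 0.93 and 1.29. The mean Traj number of Trav11 partners was higher in KO by 6.04 at steady state, 4.22 at 24 h, 6.66 at 48 h and 5.64 on average, and the mean V rank of Traj18 partners by 3.33 at steady state. With partners of at least 0.01% that rank differed by 6.05 at 48 h and lost its call. With single libraries left out, the Trav11 partner difference ran from 5.51 to 6.58 at steady state, from -5.36 (reversed, without KO replicate 1 at 48 h) to 6.55 at 48 h, and from 1.497 to 5.47 on average. The cause was not tested.

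Called Traj18 pairs at 48 h in KO minus WT numbered 1 with a pseudocount of 0.1%, 19 in the 8 fine tables and 0 to 5 without single libraries. For the mean they numbered 1 with the replicate block, 1 with 0.1%, 31 in the fine tables and 0 to 3 without single libraries. From 24 h to 48 h in WT they numbered 0 with 0.001%, 0 with pairs of at least 0.01%, 50 in the fine tables and 0 to 13 without single libraries; in KO, 2 with 0.1%, 48 in the fine tables and 0 to 1 without single libraries. Called Trav11 and Trav11d pairs in the fine tables numbered 6 at steady state, 2 at 48 h, 8 for the mean, 15 from 24 h to 48 h in WT and 10 in KO, of 86, where 366, 678, 1248, 1618 and 1251 of all 3397 pairs were called; in WT they numbered 0 with 0.001% and 0 with pairs of at least 0.01%. Without single libraries they numbered 0 to 1 at steady state, 0 to 1 at 48 h, 0 to 2 for the mean and 0 to 3 from 24 h to 48 h in WT. The block was not fitted to the changes from 24 h to 48 h. Where no count or share over all pairs is given, the counts of called member pairs show only how far the calls move with the setting. Depth is unknown, and the coarse tables cannot resolve pairs under their smallest share.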
